A study of Sus scrofa with 9 samples.

Results

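The interleukin 1 family of cytokines and the machinery around it were followed in pig blood through 11 of the 43603 probes of a porcine oligonucleotide microarray, and these stand under 10 of its 41325 gene name entries. A probe was taken when its gene name was IL1RN, IL1B, IL1A, IL18 or CASP1, or when its description held the words interleukin 1 or interleukin 18 or the text "caspase-1" in the forms searched. The gene name found 4 probes and the description alone found another 7. The probes read the interleukin 1 receptor antagonist (IL1RN), interleukin 1 alpha (IL1A), interleukin 18 (2 probes), the interleukin 1 receptor type I (IL1R1), the interleukin 18 receptor alpha chain (IL18R1), the kinase IRAK4 and caspase 1 (CASP1). No probe met the rule for IL1B, which is not analysed here. The text search also caught 3 probes that do not read the named genes: a partial match to a bovine caspase-13 precursor (called CASP13-like here), pig caspase-15 (CASP15), and a 3% match to a bacterial protein whose name contains caspase-1.

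The samples were whole blood of male specific-pathogen-free Clawn miniature pigs, a small laboratory breed, collected in tubes that preserve RNA. Every group came from the same experiment with oral azide, a poison of cytochrome c oxidase in the mitochondrial respiratory chain. Blood was drawn before feeding (0 h, no azide) and 6 h and 24 h after an oral dose of 300 µg/kg, which the design text sets at 0.01 of the LD50; each of the 3 times had 3 arrays, or 9 altogether. The pigs are called 7 months old in some label fields and 7 weeks old in another, and neither the azide salt nor the animals that arrays share are named. With no undosed pigs at the later times, dose, meal, handling and time of day cannot be told apart, and since each group had a slide and a scan of its own, neither can slide and group.

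Interleukin 1 alpha and interleukin 1 beta bind the type I receptor and, through the adaptor MYD88 and the IRAK kinases, switch on NF-kappa B and inflammatory genes. IL1RN occupies the same receptor without signalling and so limits the response; in blood it is made mainly by monocytes and neutrophils. Interleukin 18 and interleukin 1 beta are made as inactive precursors that caspase 1 cuts once it has been activated in an inflammasome, a protein platform nucleated by sensors such as NLRP3.

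The probes are single strands of 60 bases, and each was spotted once per array. The sequences of 5 probes that carry results below are given 5′ to 3′ as the deposited scanner files hold them, since the name of a probe rests on what it can hybridise to. Where a probe holds AATAAA, the usual polyadenylation signal of mRNA, a stretch of 30 bases is shown with that motif in capitals; the other probes are shown whole.
IL1RN, bases 26 to 55: gctctattttacAATAAAaccttgaaaact
IL18: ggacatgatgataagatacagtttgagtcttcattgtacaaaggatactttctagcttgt
IRAK4: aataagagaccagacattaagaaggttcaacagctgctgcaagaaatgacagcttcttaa
CASP1: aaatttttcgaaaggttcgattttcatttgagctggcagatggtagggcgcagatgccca
CASP13-like, bases 31 to 60: tatccattttctgcagatctatccAATAAA

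The motif AATAAA stood in 4 of the 11 probes, against 12.1% of all probes of the array, and its reverse complement in 0 of the 11, against 4.63% of all probes. A match describes the letters of the probe only. GC content ran from 35.0% to 45.0% in the 11 probes, with a median of 40.0% over all probes. The longest run of bases shared by any pair of the 11 was 10 bases, between CASP1 and the second IL18 probe, while CASP1 and CASP13-like shared at most 6, and no other probe of the array shared a run of 20 bases or more with any of them.

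Values below are log2 of the background-subtracted spot intensity minus the 75th percentile of the same array, so a level of 0 is that percentile and each unit is a factor of 2 in signal. Probes differ in binding strength, and a level of one probe is therefore not set against that of another. A probe entered the tests when every array of 1 group or more showed it well above background, which held for 19783 probes and for 7 of the 11: IL1RN, IL1A, IL18 (the mRNA probe), IRAK4, CASP1, CASP13-like and CASP15. The share of spots well above background was 39.9% to 46.6% on arrays before feeding, ran from 42.4% to 47.8% at 6 h and from 45.5% to 56.6% at 24 h, and arrays of 1 group correlated at r of 0.94 to 0.98. Differences were tested with limma, with p-values adjusted by Benjamini and Hochberg's method over all 19783 probes. The p-values measure only the spread between these samples.

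**Figure D1:**
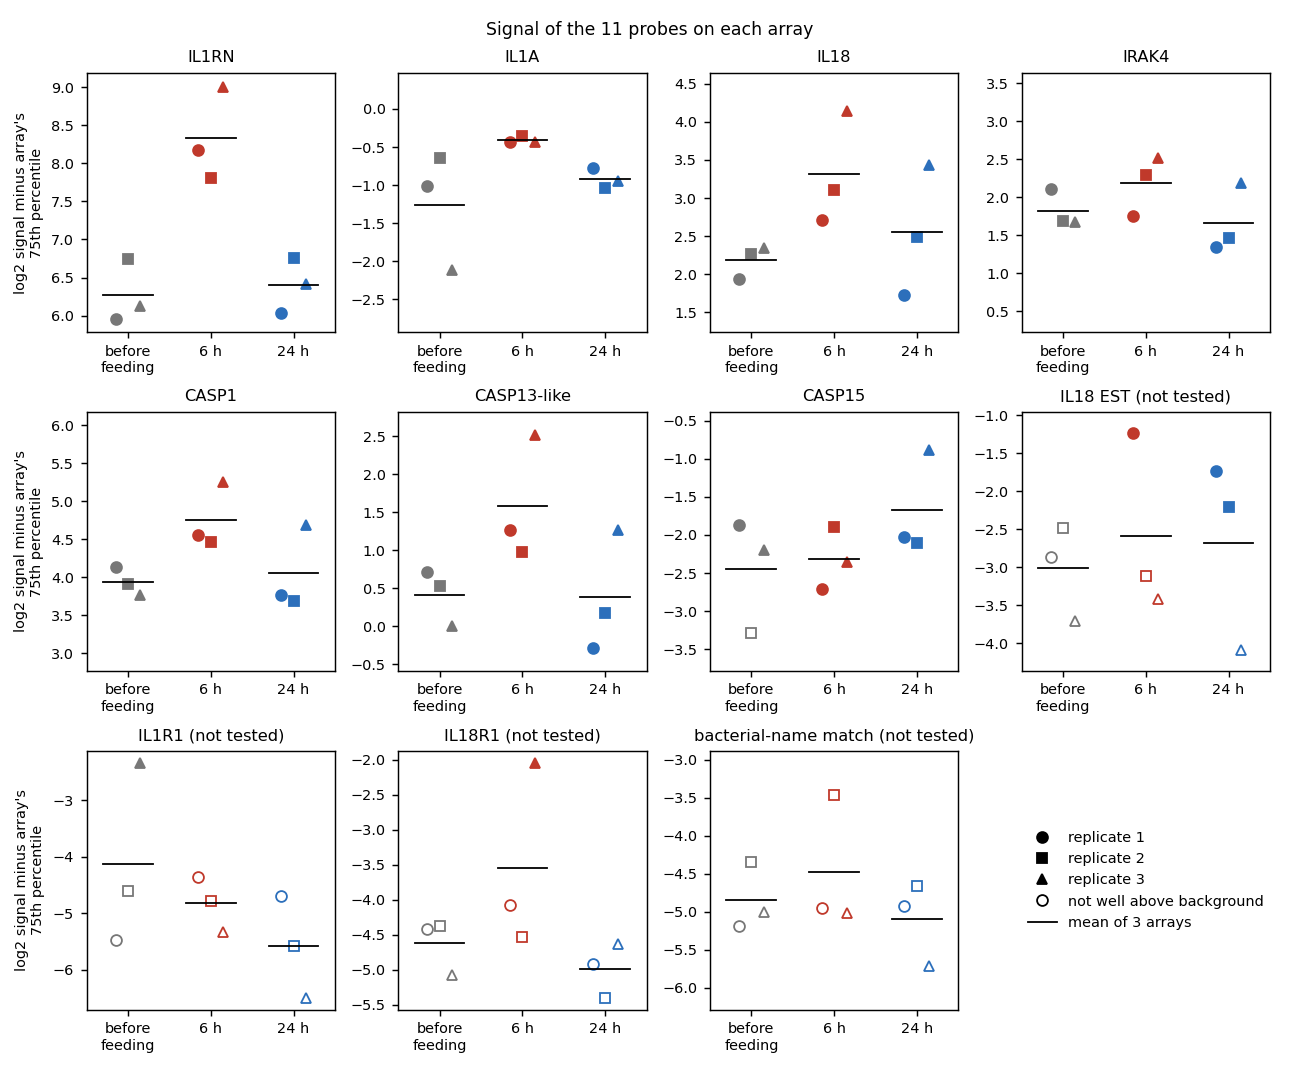
Signal of each of the 11 probes (log2 intensity minus the array's 75th percentile, vertical) before feeding, at 6 h and at 24 h, with 1 symbol per array, a line at the mean of 3 arrays and open symbols for arrays where the probe was not well above background. The 3 IL1RN arrays at 6 h, at 7.81 to 9.01, lie above all 6 others, while IL1R1, IL18R1 and the bacterial-name match are almost always open symbols.

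At 6 h the antagonist IL1RN had the largest difference of the tested probes followed here, 2.05 on the log2 scale above the level before feeding, or 4.15-fold. IL18, IL1A, CASP1 and the CASP13-like probe were also above the level before feeding on every 6 h array, by 0.82 to 1.16 on average. At 24 h IL1RN differed from the level before feeding by 0.13, but by 1.14 (adjusted p = 0.0376 by limma, from 0.0376 to 0.983 over 22 alternatives) when arrays were centred on the spike-in controls. None of the 7 passed the threshold of 0.05 on the adjusted p in any comparison under the scaling used here.

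IL1RN gave a processed intensity of 26500, 13600 and 48800 on the 3 arrays at 6 h and 7460, 11900 and 17700 at 24 h, against 5100, 5960 and 6550 before feeding. Before scaling the 24 h arrays were thus also above those before feeding, and the 75th percentile of the 24 h arrays was itself higher, at 6.78 to 7.70 on the log2 scale, against 5.80 to 6.56 before feeding. On the scaled log2 axis its level was 5.96, 6.75 and 6.12 before feeding, 8.17, 7.81 and 9.01 at 6 h, and 6.04, 6.76 and 6.42 at 24 h. The 6 h arrays stood apart from both other times with no overlap, and the arrays before feeding and at 24 h covered nearly the same range. The difference at 6 h was 2.05 ± 0.37 (SE, n = 3 each), with a 95% interval of 1.23 to 2.88 and an adjusted p of 0.0603 by limma. It ranked 65th of 19783 by p, and 98.9% of the tested probes had a smaller change. Between 24 h and 6 h the difference was -1.92 ± 0.37 (SE), with a 95% interval of -2.75 to -1.10 and an adjusted p of 0.112 by limma, which was the smallest adjusted p in that comparison and was shared with other probes. The 24 h level differed from that before feeding by 0.13 ± 0.37 (SE, adjusted p = 0.901 by limma), with a 95% interval of -0.69 to 0.95 that leaves out a difference of the size seen at 6 h.

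Of the agonists, IL1A is the form of interleukin 1 that needs no cut by caspase 1 to signal. Its scaled level was -1.01, -0.65 and -2.11 before feeding, -0.43, -0.35 and -0.44 at 6 h, and -0.77, -1.04 and -0.95 at 24 h. All 3 arrays at 6 h lay above all 6 others, by a narrow margin over the highest array before feeding, and the arrays before feeding were the most spread. Its difference at 6 h was 0.85 ± 0.36 (SE, n = 3 each, adjusted p = 0.174 by limma), and at 24 h against before feeding it was 0.34 ± 0.36 (adjusted p = 0.697). The 6 h difference was 0.42 without replicate 3 from before feeding, 0.36 with normexp background correction and 1.54 with array weights (adjusted p of 0.00114 by limma there, and 0.00114 to 0.472 over 22 alternatives). The signal was dim, although the probe stood well above background on all 9 arrays. Its processed intensity was 21.8 to 40.7 before feeding, 47.3 to 69.8 at 6 h, and 66.9, 53.4 and 107 at 24 h. Before scaling the 24 h arrays thus did not lie below the 6 h arrays.

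IL18 drives interferon gamma production by T cells and natural killer cells. Its mRNA probe was at 1.93, 2.27 and 2.34 before feeding, 2.71, 3.10 and 4.15 at 6 h, and 1.73, 2.49 and 3.44 at 24 h. The 6 h arrays were all above those before feeding, but the 24 h arrays spanned both, with replicate 3 high and replicate 1 below every other array. The difference was 1.14 ± 0.47 at 6 h (SE, n = 3 each, adjusted p = 0.168 by limma) and 0.38 ± 0.47 at 24 h against before feeding (adjusted p = 0.747). Without 6 h replicate 3 the 6 h difference was 0.73, and with array weights 0.54. The second IL18 probe, drawn from an expressed sequence tag, stood well above background on 1 of 3 arrays at 6 h, 2 of 3 at 24 h and 0 of 3 before feeding. Its scaled level was -1.23 on that 6 h array. The other 6 h arrays, at -3.11 and -3.42, lay within the range before feeding, -3.70 to -2.48. At 24 h it was -1.73, -2.21 and -4.09. No fold is given, since arrays not well above background enter the mean of every group. That probe was too dim to be tested and gives no second measure of the mRNA probe's difference.

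The receptors could hardly be measured. IL1R1, which carries the signal of interleukin 1, stood well above background on 1 of 3 arrays before feeding and on none at 6 h or 24 h. IL18R1, the ligand-binding chain for interleukin 18, did so on 1 of 3 arrays at 6 h and on none of the other 6 arrays. No fold is given for either, since arrays not well above background enter the mean of every group. The bacterial-name match was not well above background on any of the 9 arrays.

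IRAK4 is the kinase that MYD88 recruits to the occupied receptor. Its level was 2.11, 1.69 and 1.67 before feeding, 1.76, 2.29 and 2.52 at 6 h, and 1.34, 1.47 and 2.19 at 24 h. The 3 times overlapped, and the difference at 6 h, 0.36 ± 0.33 (SE, n = 3 each, adjusted p = 0.501 by limma), was close to its own error, with a 95% interval of -0.36 to 1.08.

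CASP1, the protease that matures interleukin 18 and interleukin 1 beta, was at 4.13, 3.91 and 3.76 before feeding, 4.56, 4.46 and 5.25 at 6 h, and 3.77, 3.69 and 4.69 at 24 h. The 6 h arrays lay above those before feeding, and 24 h replicate 3 sat among the 6 h arrays while the other two 24 h arrays were at or just under the range before feeding. The difference was 0.82 ± 0.35 at 6 h (SE, n = 3 each, adjusted p = 0.172 by limma) and 0.12 ± 0.35 at 24 h against before feeding (adjusted p = 0.901). The CASP13-like probe, which matches an inflammatory caspase described in cattle, was at 0.72, 0.53 and 0.00 before feeding, 1.26, 0.97 and 2.51 at 6 h, and -0.28, 0.17 and 1.27 at 24 h. It had the same order of arrays as CASP1 at 6 h, and the 2 probes correlated at r = 0.97 over the 9 arrays, which share their slides and brightness, although they share no run of more than 6 bases. Its difference at 6 h was 1.16 ± 0.48 (SE, n = 3 each, adjusted p = 0.171 by limma), and at 24 h against 6 h it was -1.20 ± 0.48 (adjusted p = 0.194). Without 6 h replicate 3 these were 0.70 and -0.73. CASP15, a caspase known from pigs and some other mammals, was at -1.87, -3.29 and -2.20 before feeding, -2.71, -1.90 and -2.35 at 6 h, and -2.02, -2.11 and -0.88 at 24 h. All 3 times overlapped, and its difference was 0.14 ± 0.45 at 6 h and 0.79 ± 0.45 at 24 h against before feeding (SE, n = 3 each, adjusted p = 0.873 and 0.459 by limma). It was not well above background on 1 of the arrays before feeding.

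**Figure D2:**
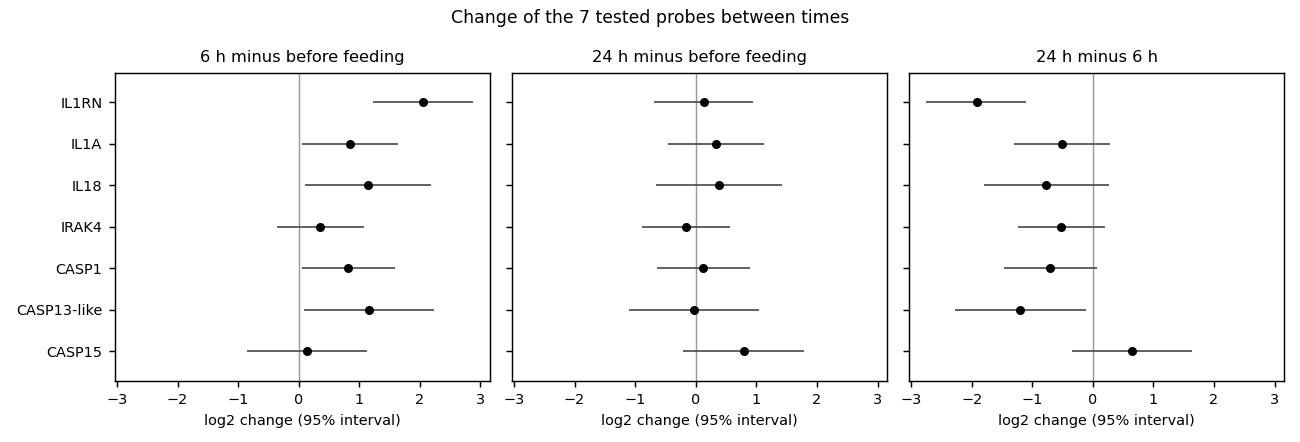
Log2 change of the 7 tested probes (points, with 95% intervals from the fit) for 6 h minus before feeding, 24 h minus before feeding and 24 h minus 6 h, with 0 marked by a vertical line. IL1RN stands farthest from 0 in the first and the last panel (2.05 and -1.92) and at 0.13 in the middle panel.

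Counted together, 7 of the 7 tested probes were higher at 6 h than before feeding, with a median of 0.85, against a median of 0.04 over all tested probes. CASP15 turned to -0.01 with median centring and to -0.07 with normexp background correction. CASP15 passed the filter only through its 6 h and 24 h arrays, so its direction is not independent of the filter. The 7 also include CASP13-like, which like CASP15 does not read a named gene and which correlated with CASP1. Of the 7 tested probes 5 had 6 h arrays entirely above the arrays before feeding, where 15.9% of all tested probes did, and 5 had an unadjusted p under 0.05, all higher, where 14.6% of all tested probes did. After adjustment 0 of the 7 passed, against 0.0253% of all tested probes. In the comparison of 24 h with before feeding the median was 0.13, against -0.01 over all, 0 of the 7 had an unadjusted p under 0.05 and 0 passed after adjustment, where 13.9% (5.27% higher, 8.61% lower) and 0% of all tested probes did. In that comparison 0 of the 7 had arrays that did not overlap, where 7.39% of all tested probes were entirely above and 19% entirely below. For 24 h against 6 h the median was -0.70, against -0.09 over all, and 2 probes, IL1RN and IL1A, had 24 h arrays entirely below the 6 h arrays, where 16.5% of all tested probes did. There IL1RN and CASP13-like had an unadjusted p under 0.05, both lower, where 13.6% of all tested probes did (7.98% were higher), and 0 of the 7 passed after adjustment, where 0% of all tested probes did. The comparisons share arrays and are not independent of each other.

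Whether the antagonist moved more than IL18, CASP1, CASP13-like, IRAK4 and IL1A was read from the log2 ratio of IL1RN to each within an array. Each ratio was set against its mean before feeding. No ratio was taken to CASP15. IL1RN over IL18 was 1.36, 0.62 and 0.76 at 6 h, against -0.07, 0.38 and -0.32 before feeding, and IL1RN over CASP1 was 1.26, 1.01 and 1.41 at 6 h, against -0.52, 0.50 and 0.02 before feeding. Neither pair of groups overlapped. IL1RN over IL1A was 1.07, 0.64 and 1.92 at 6 h, against -0.56, -0.14 and 0.70 before feeding, and here the groups overlapped. The mean ratio was higher at 6 h by 0.91 for IL18, 1.23 for CASP1, 0.89 for CASP13-like, 1.69 for IRAK4 and 1.21 for IL1A. In exact two-sided permutation tests the first 4 each had p = 0.1, the smallest that 3 arrays against 3 allow, and IL1A had p = 0.2; adjusted over the 15 ratio tests these were 0.188 and 0.3. A single scaling factor per array cancels in these ratios, whereas quantile normalization and another background correction would not, and no ratio could pass the threshold in this design.

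Levels of blood cell markers were read on the same arrays. The mean level of the monocyte list (CD14, CD163, LGALS3, FCN1 and LYZ, 5 of 10 listed genes tested, each centred on its own mean) was 0.90, 0.31 and 2.14 at 6 h, against -1.26, -1.10 and -0.64 before feeding. The neutrophil list, of which only LTF and NCF1 among 13 listed genes were tested, was at 2.44, 0.18 and 3.21 at 6 h, against -2.00, -1.31 and -1.34 before feeding. The T cell list (6 of 10 listed genes tested, CD3D, CD3E and CD3G among them) was at -0.38, -0.02 and -1.23 at 6 h, against 0.52, 0.30 and 0.53 before feeding. Replicate 3 of the 6 h group was the highest of all 9 arrays in the monocyte and neutrophil lists and the lowest in the T cell list, and it was also the highest in IL1RN, IL18, IRAK4, CASP1 and CASP13-like. At 24 h the monocyte list was at -0.67, -0.39 and 0.70 and the neutrophil list at -0.64, -0.55 and 0.02. The neutrophil list thus still lay above every array before feeding, unlike IL1RN, and the monocyte list overlapped those arrays. The T cell list was at 0.17, 0.12 and -0.01 at 24 h, below every array before feeding. Of the other lists, all 3 tested natural killer and cytotoxic genes were lower at 6 h, with a median of -0.76, the single B cell and red cell genes had differences of -0.13 and -0.30, and the 2 platelet genes went opposite ways. No marker passed the adjusted threshold. The part of these cell types in the differences of IL1RN and the others was not tested, and in whole blood a change in the number of cells of a type and a change in RNA per cell cannot be told apart.

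The genes whose level ran most like that of IL1RN over the 9 arrays, among 1352 symbols with a tested probe, were LGALS3 and SCARB1 (r = 0.98 each), TKT, MCL1 and NFKBIA (r = 0.97 each). LGALS3 encodes galectin 3 and is also on the monocyte list; SCARB1 is a lipoprotein receptor; TKT is an enzyme of the pentose phosphate pathway; MCL1 protects cells from apoptosis; NFKBIA is the inhibitor that holds NF-kappa B in the cytoplasm. Their differences at 6 h ran from 1.29 ± 0.32 for TKT to 2.19 ± 0.47 for NFKBIA (SE, n = 3 each, adjusted p of 0.0797 and 0.076 by limma), and those at 24 h against before feeding from 0.01 for TKT to 0.52 for NFKBIA. A second NFKBIA probe stood at 1.56 ± 0.45 above before feeding at 24 h (SE, adjusted p = 0.239 by limma) and at -0.34 ± 0.45 at 24 h against 6 h, so the probes of NFKBIA disagree on the 24 h level. The other tested probes followed here were less like it: r with IL1RN was 0.81 for CASP13-like, 0.77 for CASP1, 0.76 for IL18, 0.64 for IL1A, 0.55 for IRAK4 and -0.30 for CASP15. The points are 9 arrays in 3 groups on 3 slides, so these correlations hold the group differences and are given as a description.

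**Figure D3:**
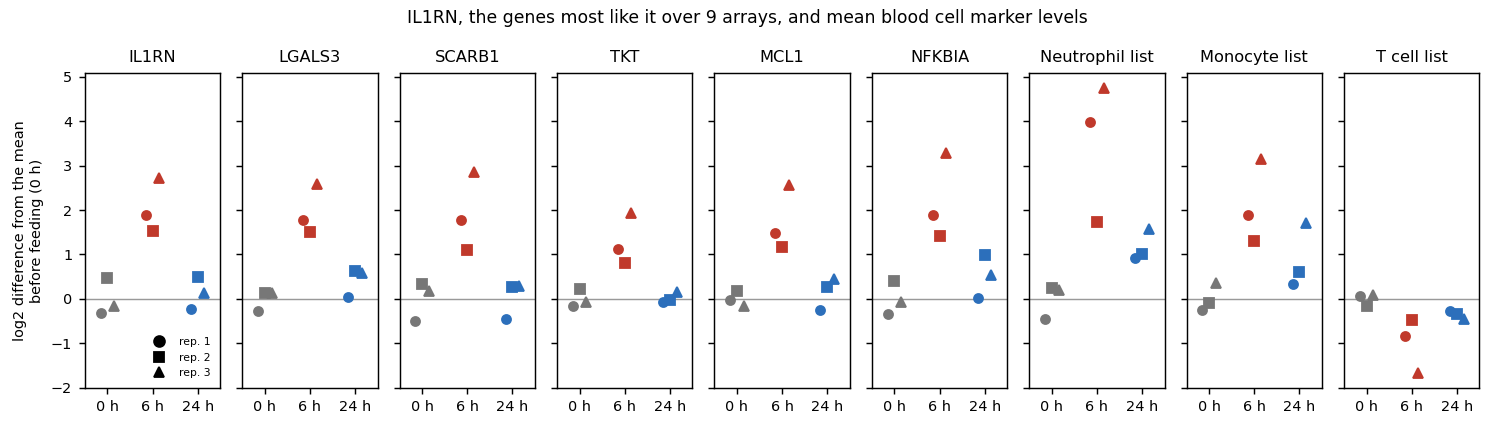
Difference of each array from the mean before feeding (log2, vertical) for IL1RN, the 5 genes most like it and the mean levels of 3 blood cell marker lists, at 0 h (before feeding), 6 h and 24 h, with 1 symbol per replicate. In every panel but that of the T cell list the highest point is 6 h replicate 3, which is the lowest point in the T cell panel.

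Around the members, the wider pathway was read from 63 further genes, of which 26 had a named probe and 17 were tested. None of the 7 further receptors and decoys and none of the 7 other ligands had a named probe here, so IL1R2, IL1RAP and the interleukin 36 genes are not analysed here; nor is the inflammasome adaptor PYCARD. At 6 h 16 of the 17 were higher and 1 lower than before feeding, with a median of 1.02 (CSF3 turned to between -0.06 and -0.01 under 4 other scalings), 9 had an unadjusted p under 0.05, all higher, and 0 passed after adjustment, against the 14.6% and 0.0253% of all tested probes given above. Of the 17, 13 were higher at 24 h than before feeding and 4 were lower, with a median of 0.40, and only MAP3K7 had an unadjusted p under 0.05, higher, where 5.27% of all tested probes did. There 5 of the 17 had 24 h arrays entirely above those before feeding, where 7.39% of all tested probes did. These were SOD2 (1.10), MAP3K7 (1.06), NLRP3 (0.62), TXNIP (0.59) and TNF (0.51). RELA had 24 h arrays entirely below those before feeding, where 19% of all tested probes did. At 24 h against 6 h 2 were higher and 15 lower, with a median of -0.91 (TNF turned positive, 0.05 to 0.71, under 6 other scalings), and 8 had an unadjusted p under 0.05, all lower, where 13.6% of all tested probes did. In these 2 comparisons 0 passed after adjustment, as did 0% of all tested probes. Of the 10 pathway genes named below, NLRP3, TXNIP and NFKBIA passed at 6 h with spike-in centring, where 659 of all 19783 tested probes did. With SOD2 added they also passed without 6 h replicate 2, where 2405 of all tested probes did. For 24 h against before feeding 7 passed with spike-in centring, where 5896 of all tested probes did, 5893 of them higher. For 24 h against 6 h TXNIP, NFKBIA and RELA passed without 6 h replicate 2, where 1764 of all tested probes did. With array weights MYD88, NLRP3, TXNIP, NFKBIA, SOD2, MAP3K7, TNF and RELA passed at 6 h, where 9866 of all tested probes did. With these weights NLRP3, TXNIP and MAP3K7 passed for 24 h against before feeding, where 5467 of all tested probes did. For 24 h against 6 h NLRP3, TXNIP, NFKBIA and RELA then passed, where 5766 of all tested probes did.

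The adaptors and kinases, 8 tested of 16 listed, were all higher at 6 h, by 0.57 to 2.19. MYD88, which links the receptor to the IRAK kinases, was at 8.22, 8.24 and 9.32 at 6 h, against 6.94, 8.05 and 7.56 before feeding. Its 6 h arrays lay above those before feeding, with a difference of 1.07 ± 0.41 (SE, n = 3 each, adjusted p = 0.145 by limma), and its second probe differed by 3.06 ± 0.77 (adjusted p = 0.081). At 24 h against before feeding the probe used differed by 0.40 ± 0.41 (SE, adjusted p = 0.684 by limma). The second MYD88 probe differed there by 2.48 ± 0.77 (adjusted p = 0.248), so the MYD88 probes disagree on the 24 h level. NFKBIA was at 9.11, 8.63 and 10.50 at 6 h, against 6.89, 7.62 and 7.16 before feeding. The groups did not overlap, and the differences over its 3 probes were 1.90 to 2.47, with 2.19 ± 0.47 (SE) for the brightest. RELA, a DNA-binding subunit of NF-kappa B, differed by 1.01 ± 0.32 at 6 h (SE, adjusted p = 0.105 by limma) and by -1.21 ± 0.32 at 24 h against 6 h (adjusted p = 0.112). MAP3K7, the kinase TAK1 downstream of TRAF6, had a difference of 0.57 ± 0.34 at 6 h and 1.06 ± 0.34 at 24 h against before feeding, and of 0.49 ± 0.34 at 24 h against 6 h (SE, adjusted p of 0.31, 0.259 and 0.43 by limma). Its probe was dim, and with normexp background correction these were 0.08, -0.05 and -0.13.

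Of the inflammasome genes 3 of 16 listed were tested. NLRP3, the sensor that assembles with PYCARD and caspase 1, was at 1.34, 1.54 and 2.53 at 6 h, against 0.35, 0.43 and 0.03 before feeding, and was at 0.49, 0.84 and 1.35 at 24 h. The 6 h arrays were well clear of those before feeding, with a difference of 1.53 ± 0.37 (SE, n = 3 each, adjusted p = 0.0777 by limma). TXNIP, a thioredoxin-binding protein that can bind NLRP3, was at 6.78, 6.53 and 7.67 at 6 h, against 4.98, 5.23 and 4.73 before feeding. Its groups did not overlap either, with a difference of 2.01 ± 0.33 (SE, adjusted p = 0.0603 by limma), and its second probe differed by 2.20 ± 0.37. CASP8, a caspase of the death receptor pathway that can also cut interleukin 1 beta, was the gene that was lower at 6 h, by -0.38 ± 0.28 (SE, adjusted p = 0.41 by limma). All its 6 h arrays lay below those before feeding, where 10.7% of all tested probes did.

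Known targets of interleukin 1 or interleukin 18 signalling, 6 tested of 17 listed, had differences from 0.12 to 2.05 at 6 h. SOD2, the mitochondrial superoxide dismutase that NF-kappa B induces, was at 6.28, 6.46 and 8.54 at 6 h, against 4.85, 4.99 and 5.29 before feeding, a difference of 2.05 ± 0.57 (SE, n = 3 each, adjusted p = 0.0872 by limma). Its 6 h arrays all lay above those before feeding, with replicate 3 far above the other two. TNF, another early inflammatory cytokine, differed by 0.57 ± 0.26 at 6 h and by 0.51 ± 0.26 at 24 h against before feeding (SE, adjusted p of 0.202 and 0.415 by limma). CSF3, the growth factor of neutrophils, differed by 0.12 ± 0.39 at 6 h and by -0.87 ± 0.39 at 24 h against before feeding (SE, adjusted p of 0.873 and 0.36 by limma). MMP9, a protease stored in neutrophil granules, differed by 1.19 ± 0.55 at 6 h and by -1.82 ± 0.55 at 24 h against 6 h (SE, adjusted p of 0.202 and 0.123 by limma).

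**Figure D4:**
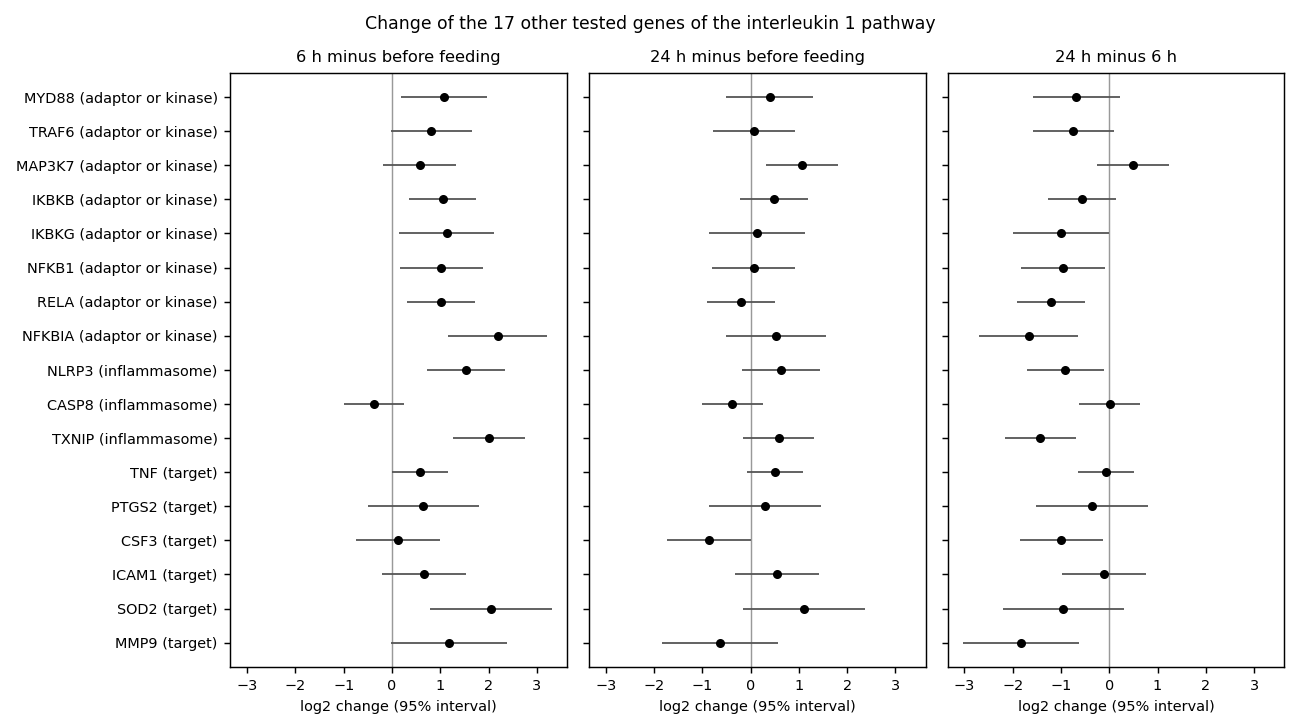
Log2 change of the 17 other tested genes of the pathway (points, with 95% intervals from the fit), grouped as adaptors and kinases, inflammasome genes and targets, for the 3 comparisons of times. At 6 h minus before feeding 16 of the 17 points lie right of 0, with NFKBIA (2.19), SOD2 (2.05) and TXNIP (2.01) farthest, and CASP8 lies left of it.

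Array scaling and single arrays bear on these values. Centring on the spike-in controls moved the median of all tested probes to 0.28 at 6 h and 1.00 at 24 h against before feeding, and to 0.68 at 24 h against 6 h; there IL1RN at 6 h had an adjusted p of 0.0332 by limma, and the directions of IL1A, IL18, IRAK4 and CASP1 at 24 h against 6 h turned. Without 6 h replicate 2 the IL1RN difference at 6 h was 2.31 with an adjusted p of 0.022 by limma, and that at 24 h against 6 h was -2.18 with an adjusted p of 0.0275. Over 22 alternatives the adjusted p of these 2 differences ran from 0.000243 to 0.186 and from 0.00243 to 0.348, with the lowest values under limma's array weights.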

How the data were processed

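Per the labels' protocols, RNA was isolated from preserved whole blood, labelled with Cy3 in a one-colour amplification and hybridised to 1 array per sample. The deposited scanner files hold processed spot intensity, background-subtracted and not normalized between arrays per the file headers. The Feature Extraction version is 10.5.1.1 in those headers but 9.5.3.1 per the submitters' processing notes, a conflict that was not resolved. The deposited series-wide values were read as linear intensity from their values; their making is not given in the sources read.

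Neither control spots nor spots flagged as outliers were used, repeated spots were averaged, and 43596 probes were kept after 7 without a usable spot on some array had been dropped. Values were log2 of the deposited processed intensity minus each array's 75th percentile. The fit was made with limma 3.58.1 in R 4.3.3 over all 9 arrays, with no term but group, and had 6 residual and 4.6 prior degrees of freedom. Symbols came from the gene name column, descriptions and RefSeq tables, for 3308 of 43603 probes; 6 names were read from descriptions by hand. Genome positions were not analysed here, and some probe sequences are not reported here. The number of arrays limits the precision. The members, gene lists and tests were chosen with earlier results of these data known. All members are given; of the pathway list, MYD88 and NLRP3, and in each comparison the 4 genes with the smallest unadjusted p, are named with values, and CASP8 was added after its values were seen. The tested probe with the highest mean stood for a gene. Alternatives were other scalings, background corrections, filters, fits and left-out arrays. The fit was run on simulated data with independent normal noise. That simulation held no slide, array or animal effect and does not bear on such effects. Plots used Python 3.11.15 and matplotlib 3.10.9.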

Additional observations from a re-analysis of the deposited data

How the results depend on the processing

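The number of tested probes past the threshold at 6 h against before feeding was 5, all higher. It was 8 with quantile normalization and with the deposited series-wide values, 659 (653 higher) with spike-in centring, 606 (524 higher, 82 lower) with the replicate block, 9866 (5082 higher, 4784 lower) with array weights, which ran from 0.274 to 8.26, and 0 with the percentile over detected probes, normexp, no filter, the all-array filter, trend and robust variance, or only the 6 arrays compared. Leaving out 1 array gave 0 to 2405, with 2405 without 6 h replicate 2 and 25 without 24 h replicate 3. For 24 h against before feeding it was 0, but 6 with quantile normalization and with the series-wide values, 5896 (5893 higher) with spike-in centring and 5467 (2581 higher, 2886 lower) with array weights. For 24 h against 6 h it was 0, but 5766 (2399 higher, 3367 lower) with array weights, and 0 to 1764 on leaving out 1 array, with 1764 without 6 h replicate 2.

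Of the 7 tested members 0 passed. At 6 h against before feeding 1 passed, IL1RN, with spike-in centring, with the replicate block (2.05, adjusted p = 0.0402 by limma) and without 6 h replicate 2, and 4 passed with array weights; leaving out 1 array gave 0 to 1. For 24 h against before feeding 3 (IL1RN, IL1A and CASP15) passed with spike-in centring and 1 with array weights. For 24 h against 6 h 3 passed with array weights, and leaving out 1 array gave 0 to 1. The replicate block changed no other member call; TXNIP, NFKBIA and SOD2 also passed with it at 6 h (adjusted p of 0.0398, 0.0437 and 0.0423 by limma). The labels do not say that a number marks an animal, and same-numbered arrays' deviations correlated at -0.15, -0.20 and 0.11 (6 h and before feeding), -0.07, 0.64 and 0.22 (24 h and before feeding) and 0.54, 0.08 and 0.45 (24 h and 6 h), so not every pair was over 0.1 and whether numbers pair arrays is unknown. The IL1RN change stayed positive at 6 h in 22 of 22 alternatives (1.72 to 2.31) and negative at 24 h against 6 h in 22 of 22 (-2.18 to -1.15); the cause of the other shifts was not tested.

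Directions turned for differences that had not passed, some of them close to 1. At 6 h against before feeding, CSF3 was -0.02 with quantile and with median centring, -0.06 with normexp, -0.01 with the series-wide values and -0.14 to 0.45 on leaving out 1 array, and CASP15 was -0.01 with median centring, -0.07 with normexp, -0.39 with array weights and -0.28 to 0.43 on leaving out 1 array. For 24 h against before feeding, CASP13-like was 0.08 with the percentile over detected probes, 0.98 with spike-in centring, 0.07 with normexp, 0.01 with array weights and -0.47 to 0.30 on leaving out 1 array. Spike-in centring also turned IRAK4 (0.85), CSF3 (0.14), RELA (0.81) and MMP9 (0.37), normexp turned IRAK4 (0.04), CASP15 (-0.02), MAP3K7 (-0.05) and RELA (0.11), the series-wide values turned RELA (0.01), its other probe gave 0.06, and array weights turned IL18 (-0.03). Leaving out 1 array could also turn IL1RN (-0.05 to 0.37), IL1A (-0.09 to 0.64), IL18 (-0.07 to 0.79), IRAK4 (-0.42 to 0.01) and CASP1 (-0.20 to 0.30). Between 24 h and 6 h, TNF was 0.10 with quantile and the series-wide values, 0.05 with median centring, 0.15 with the percentile over detected probes, 0.71 with spike-in centring, 0.17 with normexp and -0.22 to 0.05 on leaving out 1 array. Spike-in centring turned IL1A (0.27), IL18 (0.01), IRAK4 (0.26), CASP1 (0.07) and MYD88 (0.10), and normexp turned MAP3K7 (-0.13). Slide as a block was not run, since each group lay on its own slide. Dim probes limit what can be read of IL1R1, IL18R1, CASP15, MAP3K7, CSF3 and the second IL18 probe.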
